A study of Drosophila melanogaster with 6 samples.

Results

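ROW and BEAF-32 peaks that overlap on the genome but have their highest points at different positions are described here. A member is a pair of 1 ROW and 1 BEAF-32 peak whose intervals share at least 1 bp while their summits lie more than 100 bp apart, on the chromosome arms 2L, 3L and 3R. There were 980 such pairs among 2300 overlapping pairs. The other 1320, with summits at most 100 bp apart, are called coinciding and serve for comparison. Members were thus chosen by 2 measured values, the peak intervals and the summit positions. All 6 samples of the study are Drosophila melanogaster S2 cells, an embryonic line that resembles blood cells, grown in serum-containing medium with antibiotics. Chromatin was precipitated with an antibody against ROW in 3 samples and against BEAF-32 in 3 samples, and no further treatment is named in the labels. The titles of all 6 begin with the tag con, which was not interpreted. Each antibody has 1 deposited peak list for its 3 samples.

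BEAF-32 is an insulator protein that recognises clusters of the CGATA motif at boundary elements, many of them next to the promoters of broadly expressed genes. ROW carries zinc fingers and AT-hooks, and it is found with WOC and the heterochromatin protein HP1c at active genes. A peak is a stretch in which precipitated DNA exceeds the local background, and its summit is the base with the most signal, the usual estimate of the contact point. An overlap of intervals alone does not say whether both maxima fall together, which the distance between summits does.

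The members took in 966 of 5115 ROW peaks on these arms (18.9%) and 974 of 2767 BEAF-32 peaks (35.2%). Offset pairs made up 42.6% of overlapping pairs (95% Wilson interval 40.6 to 44.6). The share was 43.8% on 2L (294 pairs), 43.7% on 3L (324 pairs) and 40.8% on 3R (362 pairs), and the intervals of the 3 arms overlapped. Neither list gives sample-level values or read counts. The spread between replicates and the depth are therefore unknown, no difference below was tested, and every interval covers counting error over peaks only. Peaks near each other are not independent, so these intervals can be too narrow.

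Offsets were most frequent just above the limit and had a long tail. The summit distance is the measure that chose the members, so it is given as a description. The median offset was 212 bp (95% interval of the median 199 to 227), with an interquartile range of 135 to 417.5 bp. One pair in 10 reached 757 bp or more, and the largest offset was 1679 bp. Offsets exceeded 200 bp in 515 pairs (52.6%), 500 bp in 200 pairs (20.4%) and 1000 bp in 49 pairs (5.0%). The ROW summit had the higher coordinate in 486 pairs and the lower one in 494, so neither coordinate side was favoured beyond counting error (49.6%, 46.5 to 52.7). Coordinate order does not follow the direction of genes, so this count cannot show whether a side relative to genes was favoured.

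**Figure D1:**
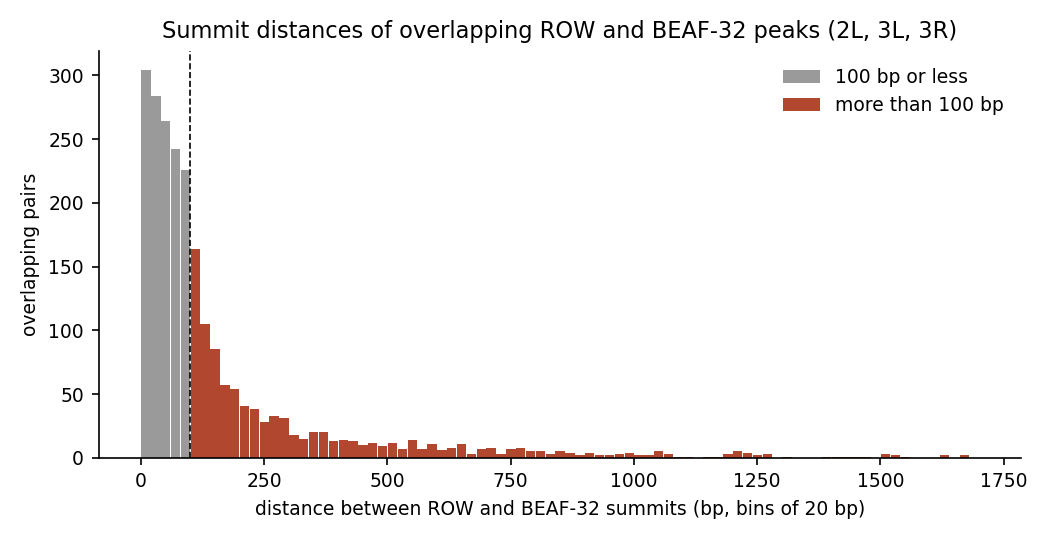
The x axis gives the distance between summits in bp, in bins of 20 bp, and the y axis the number of overlapping ROW and BEAF-32 pairs on 2L, 3L and 3R. Grey bars hold the 1320 coinciding pairs and red bars the 980 offset pairs, which continue the decline of the grey ones and reach out to 1679 bp.

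The limit of 100 bp cut through a continuous range. The 91 pairs just beyond it, at 101 to 110 bp, had a median fold enrichment of 6.39 for ROW (5.57 to 7.75) and 9.55 for BEAF-32 (6.61 to 15.6). Fold enrichment, which is the authors' value for each peak, is the ratio of signal at the summit to local background and is read only within a list. The 101 pairs at 91 to 100 bp had medians of 7.97 for ROW (4.93 to 9.86) and 14.7 for BEAF-32 (9.55 to 18.4). For each protein the intervals on both sides of the limit overlapped. Median ROW widths on the near and far side of the limit were 659 and 654 bp. Median BEAF-32 widths were 602 and 580 bp.

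In most members each summit still lay within the peak of the other protein. Both summits were inside the other interval in 696 pairs (71.0%), and here the median offset was 161 bp. In 202 pairs (20.6%) the BEAF-32 summit lay inside the ROW peak while the ROW summit lay outside the BEAF-32 peak. The opposite arrangement, with the ROW summit alone inside, was found in 42 pairs (4.3%). In 40 pairs (4.1%) neither summit was inside, so that the intervals met along their flanks. Among coinciding pairs both summits were inside in 1319 of 1320, which the short distance all but requires.

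These arrangements differed in which peak was wide. A peak that holds the other summit, while its own summit is not held in return, tends to be the wider one. The width contrast is therefore largely set by how the arrangements are defined. Where the BEAF-32 summit alone was inside, the median ROW width was 1280 bp, that of BEAF-32 was 449.5 bp, the median offset was 631 bp, and the median BEAF-32 fold enrichment was 3.59. Where the ROW summit alone was inside, the BEAF-32 peak was the wide one, with a median of 962.5 bp against 499 bp for ROW. The median ROW fold enrichment in those pairs was 2.94. In the 40 flank contacts the intervals shared a median of 175.5 bp and as little as 1 bp. Median fold enrichment there was 4.81 for ROW and 2.83 for BEAF-32. Pairs with both summits inside had the highest medians of the 4 arrangements, 7.88 for ROW and 9.45 for BEAF-32. In each one-sided arrangement the peaks whose summit lay inside the other were the narrower ones by median. Their median strength was below that of their own list on these arms (4.12 for ROW and 7.42 for BEAF-32). For ROW the interval of the 2.94 median, 2.21 to 4.59, included the list value. The wide BEAF-32 peaks around a ROW summit were also below their list by median, at 4.67 (3.05 to 5.79). The wide ROW peaks around a BEAF-32 summit were above theirs, at 6.20 (5.81 to 6.94).

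ROW peaks in offset pairs were wide. Their median width was 780 bp (761 to 810), against 608 bp (596 to 619) in coinciding pairs and 575 bp over the whole ROW list on these arms. BEAF-32 peaks differed less, with a median of 627 bp (613 to 641) against 572 bp (562 to 581) in coinciding pairs and 565 bp over all BEAF-32 peaks. The ROW peak was the wider one in 663 of 980 offset pairs (67.7%) and in 775 of 1320 coinciding pairs (58.7%). Wide intervals leave more room for distant summits to share bases, so width is tied to the rule. Across the members, the offset followed ROW width (Spearman's rho 0.51, Pearson's r 0.64, 980 pairs) more than BEAF-32 width (rho 0.14, r 0.13). Both measures of a point come from the same peak calls.

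**Figure D2:**
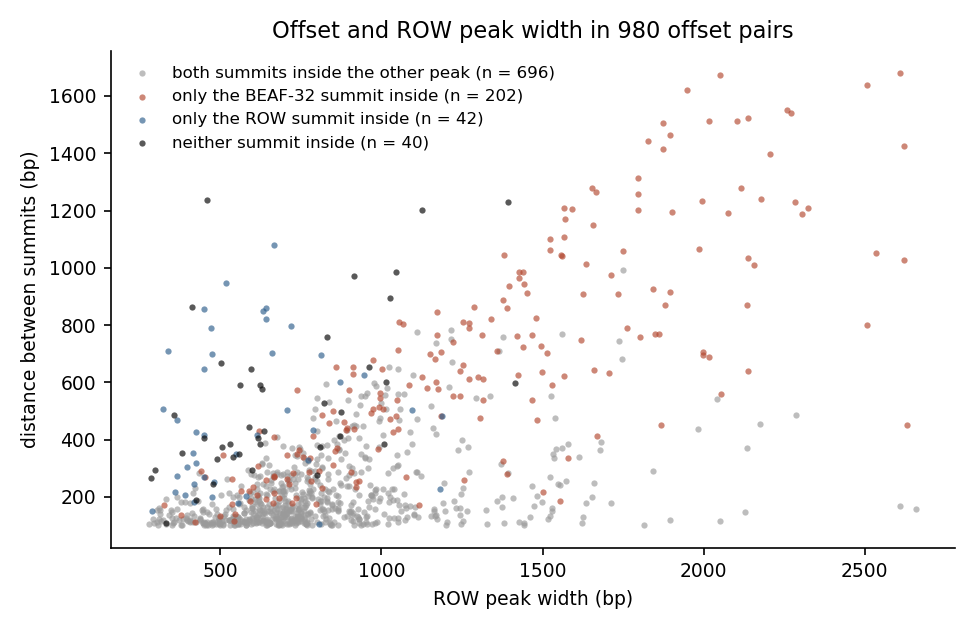
Each point is 1 of the 980 offset pairs, with ROW peak width in bp on the x axis, summit distance in bp on the y axis and colour for the summits that lie inside the other peak. Offsets above 1300 bp occur beside ROW peaks of more than 1700 bp and with the BEAF-32 summit alone inside (red). Pairs with both summits inside (grey) have a median offset of 161 bp and an interquartile range of 123 to 251 bp.

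Wide ROW peaks were more often offset. Overlapping pairs were split into 4 equal-sized classes by the width of their ROW peak. In the narrowest class, up to 525 bp, 23.1% of pairs were offset (19.8 to 26.7). The share was 31.2% in the next class, 50.2% in the one after and 66.1% (62.1 to 69.8) with ROW peaks over 891 bp. The median offset of the members was 139, 164.5, 187 and 440.5 bp in the same order. With classes of BEAF-32 width the shares were 38.8%, 34.3% and 35.0% in the first 3 and 62.4% (58.4 to 66.3) in the widest one, above 700 bp. The widest BEAF-32 peaks alone stood apart here, whereas the ROW shares were higher at each step.

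The intervals were shifted as well as the summits in many pairs. The midpoints of both intervals were more than 100 bp apart in 548 offset pairs (55.9%) and in 295 coinciding pairs (22.3%). In the other 432 members the intervals were centred within 100 bp of each other and the summits sat off-centre. Overlap was extensive all the same, with a median of 526.5 bp or 97.3% of the shorter interval. The BEAF-32 peak lay wholly within the ROW peak in 294 pairs (30.0%) and the ROW peak wholly within the BEAF-32 peak in 121 pairs (12.3%). In coinciding pairs these shares were 34.0% and 24.1%.

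Peaks tended to reach farther on the side of the other summit. In 684 members (69.8%) more than 50% of the ROW width lay on the side of the BEAF-32 summit, and in 783 (79.9%) more than 50% of the BEAF-32 width lay on the side of the ROW summit. The median share of width on the facing side was 57.3% for ROW and 59.4% for BEAF-32. In coinciding pairs with distinct summits the counts were 560 of 1310 for ROW (42.7%) and 927 of 1310 for BEAF-32 (70.8%). Overlap between peaks with distant summits favours such long facing flanks, so the rule enters these shares, and its part in them was not tested.

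BEAF-32 peaks of offset pairs were weaker by median than those of coinciding pairs. Their median fold enrichment was 6.52 (5.87 to 7.25), against 10.17 (9.19 to 11.2) in coinciding pairs. The median over all BEAF-32 peaks on the arms was 7.42 (6.92 to 8.05), an interval that overlaps that of the members. The log2 difference of medians between offset and coinciding pairs was −0.64. It was −0.21 when both lists were limited to peaks of −log10 q of at least 10. On single arms it was −0.36 on 2L (−0.64 to 0.11, from the interval of the members' median), −0.73 on 3L and −0.71 on 3R. The weakest quartile of the BEAF-32 list, up to 3.68-fold, supplied 295 members (30.1%), the next ones 232 (23.7%) and 250 (25.5%), and the strongest, above 18.3-fold, 203 (20.7%). Among coinciding pairs the weakest and the strongest quartile held 17.7% and 32.4%.

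ROW peaks of offset pairs were, in contrast, stronger by median than those of coinciding pairs. Their median fold enrichment was 7.21 (6.71 to 7.63), against 5.42 (5.08 to 5.72) in coinciding pairs and 4.12 over all ROW peaks on the arms, a log2 difference of 0.41 between offset and coinciding pairs. The strongest ROW quartile, above 8.09-fold, supplied 429 members (43.8%) and the weakest, up to 2.63-fold, 111 (11.3%). Among coinciding pairs these shares were 34.24% and 12.7%. The weakest quartile was thus about as scarce there, while the strongest held a smaller share than among the members. The lean to strong ROW peaks was therefore shared only in part by coinciding pairs. With ROW peaks from the middle 50% of the list by width, the log2 difference was 0.22.

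Within classes of ROW width the 2 lists differed. From the narrow to the wide class, the log2 difference in ROW fold enrichment between offset and coinciding pairs was −0.21, −0.20, 0.05 and −0.03. The higher overall ROW median thus did not recur within these 4 classes beyond 0.05. In the 4 classes of BEAF-32 width, however, the ROW difference was 0.10, 0.50, 0.44 and 0.01. Whether width accounts for the ROW difference was not tested. The BEAF-32 difference kept its sign in each class of ROW width and of BEAF-32 width. It was −0.86, −0.37, −0.34 and −0.89 in the same classes of ROW width. In the 4 classes of BEAF-32 width it was −0.32, −0.69, −0.66 and −0.21. When the classes of ROW width were split further by ROW strength quartile, the sign was not uniform. The BEAF-32 difference then ranged from −1.17 to 0.51, and most of the values were negative.

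**Figure D3:**
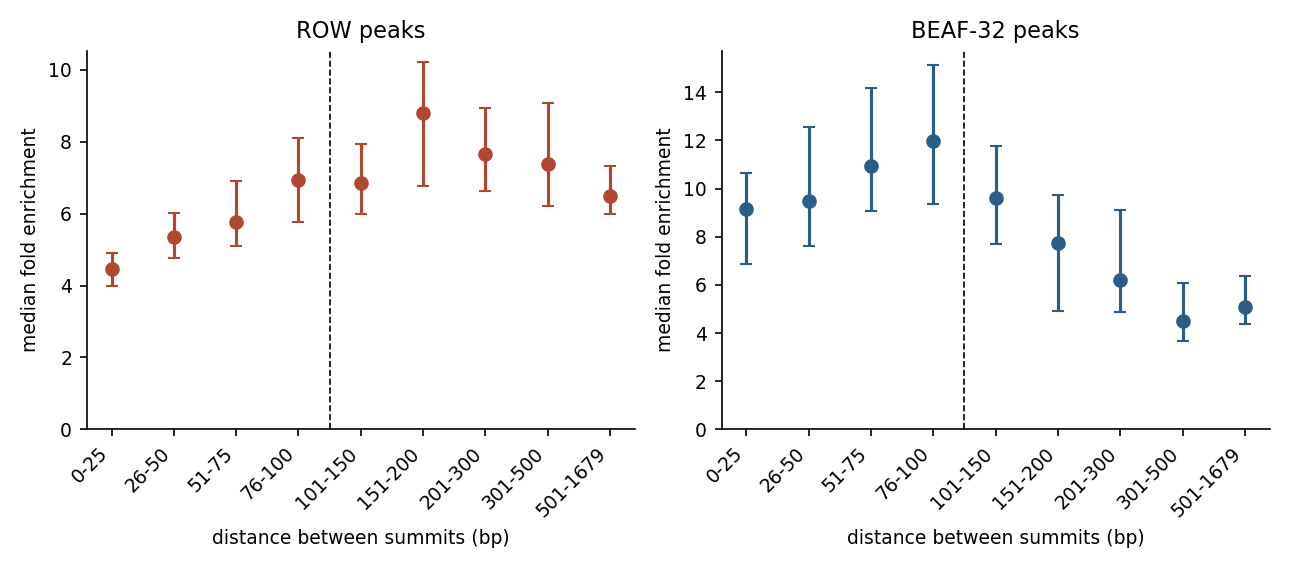
Points are median fold enrichments of ROW peaks (left) and BEAF-32 peaks (right) in bins of summit distance in bp, with bars for the 95% order-statistic interval of the median; the dashed line marks 100 bp. The ROW median is 4.46 in pairs at 0 to 25 bp and 8.80 at 151 to 200 bp, and the BEAF-32 median is 11.96 at 76 to 100 bp and 4.50 at 301 to 500 bp.

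Neither protein followed distance in a straight line. The ROW median was 4.46 in the 370 pairs with summits at 0 to 25 bp, 6.84 at 101 to 150 bp, 8.80 at 151 to 200 bp and 6.48 in the 200 pairs beyond 500 bp. The BEAF-32 median went from 9.16 in the closest pairs to 11.96 at 76 to 100 bp, and then to 9.62, 7.73, 6.21 and 4.50 in the bins up to 500 bp. It was 5.08 beyond 500 bp. Within the members, Spearman's rho of offset with fold enrichment was −0.20 for BEAF-32 and −0.03 for ROW (Pearson's r −0.15 and −0.09, 980 pairs). The strengths of both proteins at a site had a rho of 0.24 across members (Pearson's r 0.21) and of 0.15 over all 2300 overlapping pairs (r 0.13).

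Read from the side of BEAF-32 strength, 55.9% of overlapping pairs with a peak of the weakest quartile were offset (51.6 to 60.0), against 42.0%, 42.5% and, in the strongest quartile, 32.2% (28.6 to 35.9). The median offset of the members in these quartiles was 270, 229.5, 194.5 and 163 bp. For ROW the shares were 39.8%, 33.5%, 42.5% and 48.7% from the weakest to the strongest quartile. The contrast by BEAF-32 strength was present at every ROW width. In the narrowest class of ROW peaks, 36.9% of pairs with a weakest-quartile BEAF-32 peak were offset, against 8.61% with a strongest-quartile one. In the widest class, these shares were 78.9% and 54.2%. How precisely each summit was placed is not given in the lists.

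**Figure D4:**
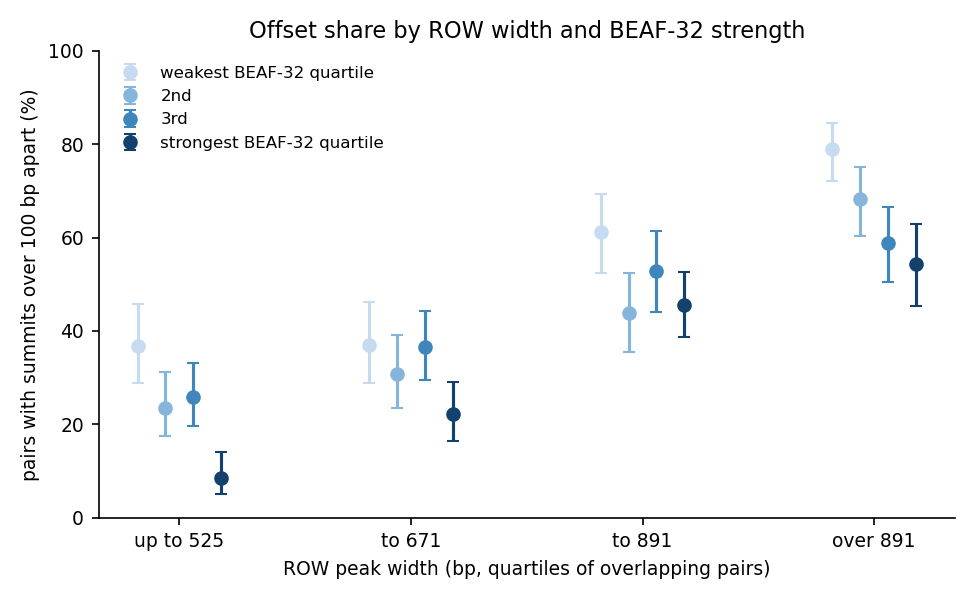
The y axis gives the percentage of overlapping pairs with summits more than 100 bp apart, by class of ROW peak width in bp (x axis) and by quartile of BEAF-32 fold enrichment (light to dark for weak to strong), with 95% Wilson intervals. In each width class the weakest BEAF-32 quartile is above the strongest, from 36.9% against 8.61% on the left to 78.9% against 54.2% on the right.

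Pairs of unequal strength were distributed unevenly. The quartile shares of each single list, given above, already differ between offset and coinciding pairs. No allowance was made for them here, so these counts do not show whether a combination was favoured. A strongest-quartile ROW peak met a weakest-quartile BEAF-32 peak in 96 offset pairs (9.8%) and in 71 coinciding pairs (5.4%). The reverse, a weakest-quartile ROW peak with a strongest-quartile BEAF-32 peak, occurred in 5 offset pairs (0.51%) and 39 coinciding pairs (2.95%). Those 5 pairs had offsets of 107 to 137 bp, all near the limit. Both peaks were in their strongest quartile in 117 offset pairs (11.9%) and 171 coinciding pairs (13.0%), and both were in their weakest in 57 (5.8%) and 41 (3.1%). The median offset was 168 bp where both were strong and 268 bp where both were weak.

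At the top of the lists the BEAF-32 peaks alone departed from the share of 42.6% over all overlapping pairs. Of the 200 strongest ROW peaks on the arms, 66 were in an offset pair, 85 in coinciding pairs alone and 49 in no overlap with BEAF-32. Of the 200 strongest BEAF-32 peaks, 44 were in an offset pair, 139 in coinciding pairs alone and 17 in none. Of the peaks that overlapped, offset ones thus made up 43.7% for ROW (66 of 151, 36.1 to 51.7) and 24.0% for BEAF-32 (44 of 183, 18.4 to 30.7).

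Some members were strong in both lists. Coordinates are on dm3 and counted from 1. The pair with the smallest sum of ranks lay on 3L, with ROW from 8190829 to 8191511 (19.8-fold, rank 65 of its list) and BEAF-32 from 8190692 to 8191382 (31.1-fold, rank 23). Its summits, at 8191163 and 8190978, were 185 bp apart inside a shared stretch of 554 bp. The second, on 3R with ROW from 19783902 to 19784584 and BEAF-32 from 19783861 to 19784528, had intervals nearly on top of each other, sharing 627 bp, with summits 112 bp apart. On 2L, ROW from 6480424 to 6481156 (18.9-fold) and BEAF-32 from 6480512 to 6481190 (31.8-fold) shared 645 bp, and the ROW summit was 134 bp lower. The pair on 3R with ROW from 15228672 to 15229347 (20.5-fold) and BEAF-32 from 15228734 to 15229438 (28.0-fold) had an offset of 157 bp.

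The other 6 of the 10 best rank sums ranged from 17.4- to 21.3-fold for ROW and from 25.5- to 27.9-fold for BEAF-32. On 2L, ROW from 11090987 to 11091674 and BEAF-32 from 11090909 to 11091533 were offset by 117 bp. On 3R, the pairs with ROW from 1057743 to 1058418 and from 4174955 to 4175675 were offset by 125 and 227 bp. On 3L, the pair with ROW from 20340937 to 20341665 was offset by 116 bp. The 2 with the widest separation were on 3L, with ROW from 12906677 to 12907513 (459 bp), and on 2L, with ROW from 18830490 to 18831352 (386 bp). In 9 of the 10 both summits were inside the other peak. The exception was the 3L pair at 459 bp, where the ROW summit lay outside the BEAF-32 interval that starts at 12907007.

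The 5 members with the strongest ROW peaks mostly paired with modest BEAF-32 peaks. ROW on 2L from 4448412 to 4449033 (26.1-fold, rank 2 of 5115) met a BEAF-32 peak of 7.42-fold with its summit 179 bp away. ROW on 3R from 8274600 to 8275173 (25.7-fold) met a BEAF-32 peak of 22.9-fold at 144 bp. The remaining 3 were on 3L. ROW from 22871683 to 22872341 (25.3-fold) was nested in a BEAF-32 peak of 1383 bp and 5.79-fold, and the summits were 704 bp apart. ROW from 21297312 to 21297994 (25.002-fold) covered a BEAF-32 peak of 2.59-fold, rank 2500 of 2767, at 107 bp. ROW from 17235084 to 17235703 (23.1-fold) overlapped one of 4.03-fold at 195 bp.

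The 5 members with the strongest BEAF-32 peaks had ROW peaks between 6.37- and 19.8-fold. The strongest BEAF-32 member spanned 22550645 to 22551274 on 3R (32.2-fold, rank 8), with a ROW peak of 9.26-fold whose summit was 199 bp away. The next, on 3R from 4770465 to 4771104 (31.9-fold), had a ROW peak of 12.1-fold at 117 bp. The BEAF-32 peak at 7387948 to 7388565 on 2L (31.4-fold) lay at the end of a ROW peak of 1556 bp and 6.37-fold, and the ROW summit was 1044 bp away. The other two of the 5 are the 2L and 3L pairs already given among the best rank sums.

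The largest offsets came from long ROW peaks with BEAF-32 at one end. On 3L, ROW from 2531476 to 2534083 (2608 bp, 10.4-fold) had its summit 1679 bp from that of a BEAF-32 peak from 2531294 to 2531908 (4.10-fold). On 2L, ROW from 10230574 to 10232623 (2050 bp) and BEAF-32 from 10230464 to 10230997 were 1673 bp apart. Each of these ROW peaks also overlapped a second BEAF-32 peak, with summits 168 and 116 bp away. Another ROW peak with a second BEAF-32 peak beneath it, on 3L from 14402101 to 14404606, was 1638 bp from a BEAF-32 summit of 19.4-fold. On 2L, ROW from 8951113 to 8953061 was 1621 bp from a BEAF-32 peak of 14.3-fold that protruded from its upper end. The fifth, on 3L with ROW from 23029666 to 23031922, was 1552 bp from a BEAF-32 peak of 1.89-fold. In all 5 the BEAF-32 summit was inside the ROW peak and the ROW summit outside the BEAF-32 peak.

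**Figure D5:**
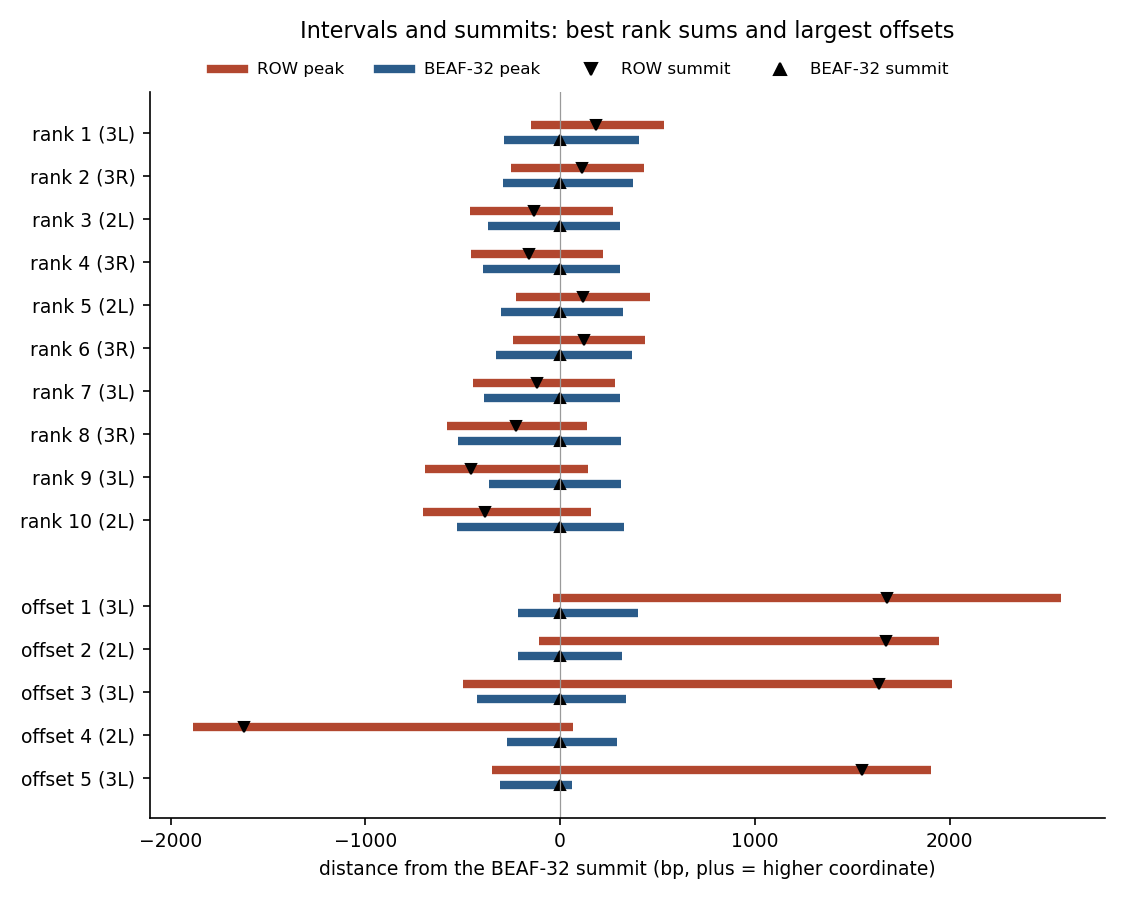
Horizontal bars are the ROW (red) and BEAF-32 (blue) intervals of the 10 offset pairs with the best rank sums and of the 5 with the largest offsets, drawn in bp from the BEAF-32 summit; triangles mark the summits. In the upper 10 pairs the ROW summit is 112 to 459 bp from the BEAF-32 summit, and in the lower 5 it is 1552 to 1679 bp away within a ROW peak of 1949 to 2608 bp.

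Few members involved a peak that spanned several of the other list. Each interval met exactly 1 of the other list in 917 members (93.6%, 91.9 to 94.9), against 98.3% of coinciding pairs. A ROW peak over 2 BEAF-32 peaks accounted for 47 members, and a BEAF-32 peak over 2 ROW peaks for 16. No peak in a member overlapped more than 2. Among pairs with offsets over 500 bp the one-to-one share was 78.0%. The rule enters these shares. The 2 summits under a spanning ROW peak were at least 703 bp apart, and those under a spanning BEAF-32 peak at least 572 bp. At most 1 of them could therefore coincide, and each spanning peak had to supply at least 1 offset pair. The lower one-to-one share of members is thus largely set by how they were chosen. The median offset was 203 bp with the 917 one-to-one members alone.

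The 33 ROW peaks that covered 2 BEAF-32 peaks had a median width of 1627 bp (858 to 2608). Their BEAF-32 summits were a median of 1100 bp apart. In 19 of the 33, 1 of the BEAF-32 peaks coincided with the ROW summit and the other supplied the offset pair, whereas in 14 both were offset. The ROW summit lay between both BEAF-32 summits in 22. The BEAF-32 peak with the nearer summit was the stronger one in 23 of 33. Over these ROW peaks the median distance was 88 bp to the nearer BEAF-32 summit and 1063 bp to the farther one.

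Both forms occurred among the strongest of these ROW peaks. On 3L from 4824668 to 4826133 (17.3-fold) the ROW summit fell between BEAF-32 summits 238 bp below and 764 bp above, of 5.18- and 8.34-fold. On 3L from 3484955 to 3486521 (17.03-fold) the nearer BEAF-32 summit was 98 bp away and counted as coinciding, and the farther one was 1208 bp away. Both of these BEAF-32 peaks were weak, at 2.59- and 2.76-fold. On 3R from 4636549 to 4638047 (14.7-fold) the distances were 182 and 636 bp.

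The 10 BEAF-32 peaks that covered 2 ROW peaks had a median width of 1205.5 bp, and their ROW summits were a median of 922 bp apart. The BEAF-32 summit lay between both ROW summits in 8 of the 10, and the ROW peak with the nearer summit was the stronger one in 4 of the 10. The strongest, on 3R from 10152325 to 10153686 (19.8-fold), had ROW summits 185 bp below (5.64-fold) and 848 bp above (11.6-fold). The next, on 3R from 25847759 to 25848767 (16.5-fold), had ROW peaks of 1.78- and 2.12-fold at 65 and 507 bp. On 3L from 15546955 to 15547901 (15.4-fold) a ROW peak of 2.29-fold coincided at 62 bp, and one of 3.61-fold touched the flank with its summit 864 bp away. In all, 23 members shared a peak with a coinciding pair, so that in 957 of 980 neither peak belonged to a coinciding pair.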

How the data were processed

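Sample titles gave the groups: in the antibody field, the number after BEAF goes up with each of its samples. Bowtie2, SAMtools, MACS2 and deepTools, without versions or roles, and the build dm3 are named in the submitters' processing notes. How the 3 samples of an antibody were combined and which control was used are not given in the sources used here. The deposited lists have no header and were read as narrowPeak files: column 7 as fold enrichment, a ratio over local background, column 9 as −log10 q, and column 10 as the summit's distance from the peak start, as MACS2 writes them. No interval was repeated within a list.

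The summit is column 2 plus column 10. Pairs, widths, overlaps and quartiles were computed on the arms 2L, 3L and 3R. Strength quartiles are those of each list on these arms, and width classes are the quartiles of all overlapping pairs. Shares have 95% Wilson intervals and medians have 95% order-statistic intervals. The pairing was checked on simulated data. Python 3.11.15, pandas 2.3.3, numpy 2.4.6, scipy 1.17.1 and, for figures, matplotlib 3.10.9 were used. No test was run. Members, groupings and alternatives were chosen with earlier results of these data known. Named pairs are the 10 with the smallest sum of ranks, the 5 with the strongest ROW peak, the 5 with the strongest BEAF-32 peak, the 5 with the largest offset and, per list, the 3 strongest peaks spanning most of the other. Alternatives were other offset limits, a stricter overlap, a −log10 q floor, single arms, one-to-one pairs, −log10 q as strength, middle widths and other chromosomes. Sequences and gene neighbours were not used here, since the reference table is on another build.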

Additional observations from a re-analysis of the deposited data

How the results depend on the processing

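No paired analysis was possible because the lists merge the 3 samples of an antibody, which also prevents leaving out single samples. The signs of both strength differences held in each of the alternatives below, but their sizes did not, and within 3 of the 4 classes of ROW width the ROW difference had the opposite sign (−0.21, −0.20 and −0.03). With an offset limit of 50 bp there were 1582 offset pairs (68.8% of overlapping pairs), with a median offset of 124 bp, log2 differences of 0.51 for ROW and −0.18 for BEAF-32, and 95.1% one-to-one pairs. With a limit of 200 bp there were 515 (22.4%), with a median of 404 bp, differences of 0.26 and −0.92, and 90.3% one-to-one pairs. These counts, shares and median offsets follow from the limit itself. With −log10 q of at least 10 the offset share was 39.9% and the BEAF-32 difference −0.21. Single arms held 294, 324 and 362 pairs, and the differences on 2L were 0.51 and −0.36, the latter with an interval that includes 0 (−0.64 to 0.11). With −log10 q as strength the differences were 1.29 and −1.59, on a scale that cannot be set beside fold enrichment. Among middle widths they were 0.22 and −1.02. Chromosomes X and 4, an alternative added after seeing the data, gave 285 pairs (44.9%), a ROW difference of 0.50 and 88.8% one-to-one pairs. Except where the scale or the limit itself changed, the cause was not tested. Depth is unknown, so weak peaks missed by either antibody cannot be counted.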

Other observations

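Spacing to the nearest peak of the same protein had overlapping intervals of the median in offset and coinciding pairs. The nearest other ROW summit was a median of 3998.5 bp away in offset pairs (95% interval 3699 to 4334) and 3795.5 bp in coinciding pairs (3515 to 4085). For BEAF-32 the medians were 6003 bp (5710 to 6436) and 5611 bp (5464 to 5892). Another BEAF-32 summit within 1000 bp was found in 37 offset pairs (3.8%, 2.8 to 5.2) and 25 coinciding pairs (1.9%, 1.3 to 2.8). For ROW these counts were 42 (4.3%) and 50 (3.8%). None of these differences was tested.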
